A study of Mus musculus with 9 samples.

Results

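Cyclins and cyclin-dependent kinases (CDKs) form the engine of the cell division cycle, and 10 of their genes, Cdk1, Cdk2, Ccna2, Ccnb1, Ccnb2, Ccnd1, Ccnd2, Ccnd3, Ccne1 and Ccne2, were followed across 9 mouse submandibular salivary glands. A gene was found through the probes that the array platform's annotation pairs with its symbol. Of the 10 genes, 9 had a probe and 8 had one above background on at least 3 of the 9 arrays, among 12553 genes that met this filter. Ccnb1, for which the annotation used names no probe, was not analysed here, and the 1 probe of Ccnb2 stayed below background on every array. The 9 genes were read by 21 probes, 19 of them above background on at least 3 arrays.

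All glands were of the Smgb-Tag genotype, so every group carried the transgene and the normal group is not a transgene-free control. In this line, from what is known of the study, sequences of the salivary gland gene Smgb drive the SV40 large T antigen, a viral protein that binds the RB and p53 tumour suppressors. The groups were 3 glands labelled normal, 3 with dysplasia and 3 with adenocarcinoma, each measured on 1 Illumina BeadChip array. The labels give no age, sex or number of animals and do not state whether replicates were separate animals. The p-values thus reflect only how far these samples scatter, and part of that scatter may be technical.

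A CDK is inactive until a cyclin binds it. D-type cyclins act with Cdk4 and Cdk6 early in G1, where they take up growth signals and phosphorylate RB, which then releases E2F transcription factors. E2F switches on cyclin E, which drives entry into S phase with Cdk2, and cyclin A, which works with Cdk2 in S phase and with Cdk1 later, before cyclin B and Cdk1 carry the cell into mitosis. A T antigen that binds RB acts at the step that D-type cyclins normally control.

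Values are log2 intensities after the authors' normalization. Every array then had the same distribution of intensities, and 6.36 marks the level above which a probe was taken to be over background. Precision is limited by having 3 arrays in each group. Across the genes tested, Pearson's r between normal 1 and normal 2 was 0.992, and 88 genes were at least 2-fold apart. The array labelled normal 3 had r = 0.866 and 0.875 with those 2 arrays, but 0.969 with dysplasia 2 and 0.972 with adenocarcinoma 2, values that describe pairs of arrays, since genes are not replicates. Markers of secretory acinar cells, 9 of the 10 listed, had median log2 intensities of 15.38, 15.28 and 13.73 on normal 1, 2 and 3, of 9.91 to 10.30 in dysplasia and of 11.77 to 14.75 in adenocarcinoma. The labels do not settle whether normal 3 is mislabelled or holds early lesion tissue, and this was not tested. Each comparison with normal is therefore given with and without normal 3. That choice was made after values were seen, which makes the p-values without it too favourable, and it rests on 2 normal arrays that are nearly alike.

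Cdk1 and Cdk2 stood higher in dysplasia and adenocarcinoma than on normal 1 and 2, and cyclin D3 stood lower. Cyclin E2 was higher as well, but it met the background filter only through arrays other than normal 1 and 2, which favours that direction. Without normal 3, the log2 fold change of Cdk1 was 3.90 ± 0.38 (SE) in dysplasia and 4.26 ± 0.38 in adenocarcinoma, that of Cdk2 was 1.89 ± 0.27 and 1.87 ± 0.27, and that of Ccnd3 was -1.14 ± 0.21 and -1.06 ± 0.21. The normal 3 array carried Cdk1, Cdk2, Ccne1 and Ccne2 at the level of the lesions or above it, and with it in the normal group no gene of the family passed the test. Whole glands were measured, so a change in the share of a cell type and a change in RNA per cell cannot be told apart. Cyclin D1 passed in neither comparison, and cyclin D2 fell in dysplasia without normal 3.

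In limma's fit over all 9 arrays, with Benjamini-Hochberg adjustment over all genes tested, 0 of the 8 cyclin and CDK genes passed an adjusted p of 0.05 in dysplasia against normal, as did 0% of the 12553 genes (lowest adjusted p 0.103, with 3 of the 8 and 2800 of all genes at an unadjusted p under 0.05). In adenocarcinoma against normal the counts were again 0 of 8 and 0% (lowest adjusted p 0.107, with 3 of the 8 and 2005 of all genes at an unadjusted p under 0.05). Without normal 3, 4 of the 8 were higher and 2 lower in dysplasia, where 12.6% of all genes were higher and 11.4% lower. In adenocarcinoma 3 of the 8 were higher and 1 lower, where 7.69% of all genes were higher and 7.96% lower. Ccna2 and Ccne2 met the background filter only through arrays other than normal 1 and normal 2, so these counts describe the measured genes and do not stand as support for a direction of the family. Dysplasia and adenocarcinoma were set against the same normal arrays, so the 2 comparisons are not independent.

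**Figure D1:**
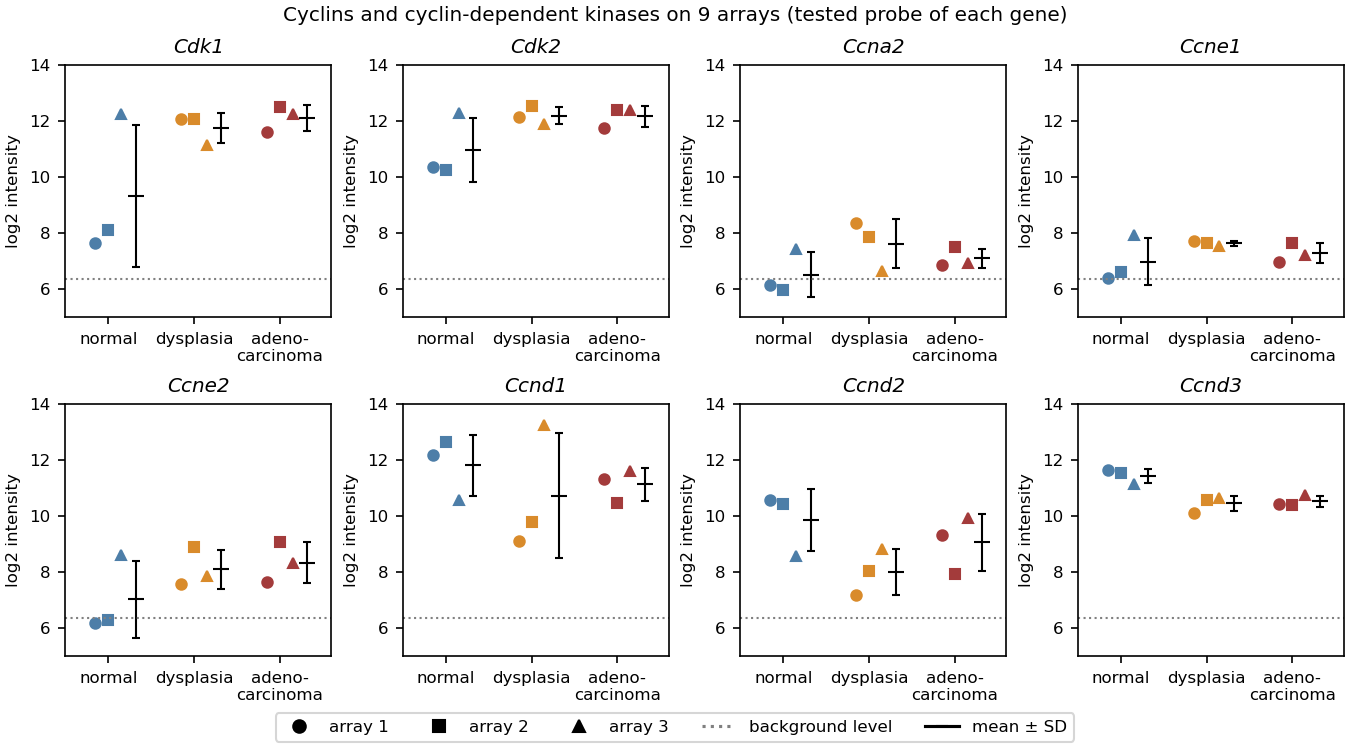
Log2 intensity of the tested probe of each of the 8 genes on the 9 arrays, by group, with circles, squares and triangles for arrays 1, 2 and 3, the group mean ± SD (n = 3) beside them and the background level of 6.36 as a dotted line. Cdk1 lay at 7.64 and 8.10 on normal 1 and 2 and at 11.15 or above on the other 7 arrays, and Ccnd3 at 11.16 or above on the 3 normal arrays and at 10.74 or below on the 6 others.

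Cdk1, the kinase that drives mitosis (chr10:69335146-69352912, GRCm38.p6), had log2 intensities of 7.64, 8.10 and 12.25 on the 3 normal arrays, of 12.08, 12.07 and 11.15 in dysplasia and of 11.61, 12.51 and 12.27 in adenocarcinoma. Normal 3 lay inside the range of the lesions and far above the other normal arrays, and both lesion groups overlapped the normal group through it alone. The group means were 9.33 ± 2.54 in normal, 11.77 ± 0.53 in dysplasia and 12.13 ± 0.47 in adenocarcinoma (SD, n = 3 each). Over all 9 arrays the log2 fold change was 2.44 ± 1.08 (SE) in dysplasia (adjusted p = 0.23, limma) and 2.80 ± 1.08 in adenocarcinoma (adjusted p = 0.29, limma). Without normal 3, Cdk1 rose 14.9-fold in dysplasia (adjusted p = 0.0017, limma) and 19.1-fold in adenocarcinoma (adjusted p = 0.0018, limma). By fold these were the largest changes without normal 3 among the 6 genes that were above background on normal 1 or 2, since Ccna2 and Ccne2 have only lower bounds.

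The size of the Cdk1 difference depended on the probe. Its 2 dimmer probes, above background on 7 and 4 arrays, gave log2 differences without normal 3 of 0.78 and 0.61 in dysplasia and of 0.68 and 0.56 in adenocarcinoma. Both lay below background on normal 1 and 2, which caps what they can show. They followed the bright probe over the 9 arrays (r = 0.95 and 0.93), and less closely over the 7 arrays other than normal 1 and 2 (r = 0.67 and 0.65). In adenocarcinoma against dysplasia they gave log2 differences of -0.10 and -0.05, against 0.36 for the bright probe.

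Cdk2, the kinase of S-phase entry (chr10:128697938-128705051), had log2 intensities of 10.38, 10.25 and 12.30 on the normal arrays, of 12.16, 12.53 and 11.91 in dysplasia and of 11.75, 12.40 and 12.40 in adenocarcinoma. As with Cdk1, normal 1 and 2 were the lowest of the 9 arrays and normal 3 lay among the lesions. Group means were 10.98 ± 1.15 in normal, 12.20 ± 0.31 in dysplasia and 12.18 ± 0.38 in adenocarcinoma (SD, n = 3 each). With every array in the fit the log2 fold change was 1.23 ± 0.52 (SE) in dysplasia (adjusted p = 0.22, limma) and 1.21 ± 0.52 in adenocarcinoma (adjusted p = 0.31, limma). Without normal 3, Cdk2 rose 3.70-fold in dysplasia (adjusted p = 0.0046, limma) and 3.66-fold in adenocarcinoma (adjusted p = 0.0069, limma). All 4 of its probes were above background on every array, and their log2 differences without normal 3 ran between 1.16 and 1.89 in dysplasia and between 1.15 and 1.87 in adenocarcinoma.

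The promoters of the 2 kinases are shown because both genes moved together and because cell cycle genes of this kind are known to be switched on through short promoter elements. The bases are the 250 before the RefSeq start in GRCm38.p6, 5′ to 3′, with capitals on matches, on either strand, to an E2F word, to the cell cycle homology region (CHR) or to a CCAAT box. The Cdk1 stretch is chr10:69352913-69353162 and the Cdk2 stretch chr10:128705052-128705301, both on the minus strand.
Cdk1: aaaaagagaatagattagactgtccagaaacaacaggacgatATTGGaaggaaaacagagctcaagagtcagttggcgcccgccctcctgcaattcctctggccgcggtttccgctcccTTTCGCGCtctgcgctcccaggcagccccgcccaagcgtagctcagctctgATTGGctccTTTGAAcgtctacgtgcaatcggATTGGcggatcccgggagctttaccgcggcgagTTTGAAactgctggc
Cdk2: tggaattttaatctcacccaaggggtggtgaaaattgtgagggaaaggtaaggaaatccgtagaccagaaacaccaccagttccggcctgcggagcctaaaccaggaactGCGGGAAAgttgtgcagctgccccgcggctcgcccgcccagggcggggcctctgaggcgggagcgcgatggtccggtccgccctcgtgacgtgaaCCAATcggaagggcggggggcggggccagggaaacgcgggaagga
The E2F words searched were TTTGGCGC, TTTCCCGC, TTTGGCGG, TTTCCCGG, TTTCGCGC and TTTGCCGC, of which at least 1 occurs in 3.22% of 32851 mouse promoters of this length. Cdk1 held 1 of them (TTTCGCGC, 131 bases before the start). Cdk2 held 1 (TTTCCCGC, on the strand opposite to the one printed, 140 bases before the start). Cdk1 also held the CHR word TTTGAA at 71 and 15 bases before the start. It held CCAAT, again opposite to the printed strand, at 208, 80 and 48 bases. A CHR word (TTTGAA or TTCGAA) occurs in 17.1% of promoters, CCAAT in 33.8%, and both together in 6.02%. Cdk2 held 1 CCAAT box, 45 bases before the start, and no CHR word. These matches describe the letters only and show no binding.

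Cyclin A2 and the B cyclins serve S phase and mitosis. Ccna2 (chr3:36564865-36573038) had log2 intensities of 6.16, 5.96 and 7.44 on the normal arrays, of 8.37, 7.85 and 6.65 in dysplasia and of 6.88, 7.50 and 6.92 in adenocarcinoma. It lay below background on normal 1 and 2 and above it on the other 7 arrays, with dysplasia 1 the highest. Group means were 6.52 ± 0.80 in normal, 7.62 ± 0.88 in dysplasia and 7.10 ± 0.35 in adenocarcinoma (SD, n = 3 each), and both lesion groups overlapped the normal group. The log2 fold change over all 9 arrays was 1.10 ± 0.52 (SE) in dysplasia (adjusted p = 0.25, limma) and 0.58 ± 0.52 in adenocarcinoma (adjusted p = 0.59, limma). Without normal 3, the group mean was at least 2.40-fold higher in dysplasia (adjusted p = 0.053, limma) and at least 1.67-fold higher in adenocarcinoma (adjusted p = 0.19, limma). Neither passed the threshold. Such bounds set the group mean against the background level and do not hold for each array: dysplasia 3, at 6.65, lay only a little above background.

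The single Ccnb2 probe, for cyclin B2 (chr9:70407689-70421554), gave log2 intensities of 5.97, 6.01 and 5.98 on the normal arrays, of 5.94, 5.96 and 5.87 in dysplasia and of 5.97, 5.83 and 5.82 in adenocarcinoma. All 9 values were below background and spanned less than 0.2 log2 units, so the probe sets only an upper limit on Ccnb2. With Ccnb1 unmeasured, the B cyclins, partners of Cdk1 in mitosis, could not be followed on these arrays.

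The E cyclins activate Cdk2 at the start of S phase. Ccne1 (chr7:38097984-38107490) had log2 intensities of 6.39, 6.60 and 7.94 on the normal arrays, of 7.71, 7.65 and 7.55 in dysplasia and of 6.97, 7.66 and 7.24 in adenocarcinoma. Normal 1 and 2 were the lowest of the 9 arrays and close to background, and normal 3 was the highest. The 3 dysplasia arrays lay closest together (group mean 7.63 ± 0.08, SD, n = 3), against means of 6.98 ± 0.84 in normal and 7.29 ± 0.35 in adenocarcinoma. The log2 fold change over all 9 arrays was 0.66 ± 0.39 (SE) in dysplasia (adjusted p = 0.34, limma) and 0.31 ± 0.39 in adenocarcinoma (adjusted p = 0.71, limma). Without normal 3, Ccne1 rose 2.20-fold in dysplasia (adjusted p = 0.012, limma), and in adenocarcinoma its log2 fold change of 0.80 ± 0.22 missed the threshold (adjusted p = 0.052, limma).

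Ccne2 (chr4:11190433-11204779) had log2 intensities of 6.18, 6.30 and 8.61 on the normal arrays, of 7.57, 8.89 and 7.85 in dysplasia and of 7.63, 9.07 and 8.31 in adenocarcinoma. It lay below background on normal 1 and 2, and normal 3 stood above 4 of the 6 lesion arrays. Group means were 7.03 ± 1.37 in normal, 8.10 ± 0.70 in dysplasia and 8.33 ± 0.72 in adenocarcinoma (SD, n = 3 each). Over all 9 arrays the log2 fold change was 1.07 ± 0.70 (SE) in dysplasia (adjusted p = 0.38, limma) and 1.30 ± 0.70 in adenocarcinoma (adjusted p = 0.38, limma). Without normal 3, Ccne2 rose at least 3.35-fold in dysplasia (adjusted p = 0.036, limma) and at least 3.94-fold in adenocarcinoma (adjusted p = 0.033, limma). The p-values come from the fit to the measured values and not to these bounds. Ccne2 met the background filter only through arrays other than normal 1 and 2, so they are no support for a direction.

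The Ccne1 promoter, chr7:38107491-38107740 on the minus strand, is shown beside those of the kinases. It held none of the E2F words, CHR words or CCAAT boxes searched, which says only that these letters are not in this window. Bases after the start, which the planned window took in, were not searched for any gene.
Ccne1: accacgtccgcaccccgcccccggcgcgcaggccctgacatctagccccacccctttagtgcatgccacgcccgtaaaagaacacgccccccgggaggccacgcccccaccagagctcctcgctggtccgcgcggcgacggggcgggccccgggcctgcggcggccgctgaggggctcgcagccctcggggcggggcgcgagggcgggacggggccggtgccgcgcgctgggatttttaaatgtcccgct
The stretch therefore carries no capitals.

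**Figure D2:**
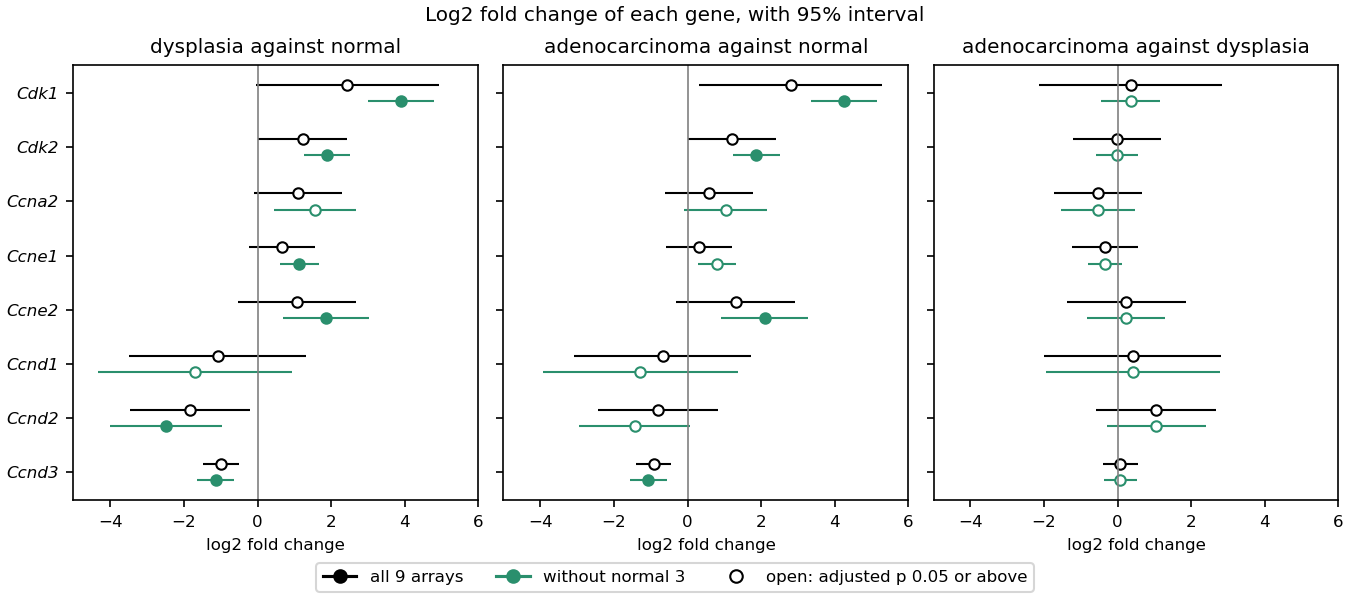
Log2 fold change (horizontal axis) of each of the 8 genes in the 3 comparisons, with its 95% interval, over all 9 arrays in black and without normal 3 in green, and filled points where the adjusted p was under 0.05. No point was filled over all 9 arrays. Without normal 3, 6 were filled in dysplasia against normal, 4 in adenocarcinoma against normal and 0 in adenocarcinoma against dysplasia.

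The D cyclins couple growth signals to Cdk4 and Cdk6, and none of the 3 was higher in the lesions by its group mean. Ccnd3 (chr17:47505051-47599689) had log2 intensities of 11.63, 11.55 and 11.16 on the normal arrays, of 10.12, 10.58 and 10.64 in dysplasia and of 10.43, 10.40 and 10.74 in adenocarcinoma. All 6 lesion arrays lay below all 3 normal arrays, normal 3 included, although normal 3 was the lowest of the normal group. Group means were 11.44 ± 0.25 in normal, 10.45 ± 0.28 in dysplasia and 10.52 ± 0.19 in adenocarcinoma (SD, n = 3 each). Over all 9 arrays the log2 fold change was -0.996 ± 0.21 (SE) in dysplasia (adjusted p = 0.14, limma) and -0.92 ± 0.21 in adenocarcinoma (adjusted p = 0.22, limma), which missed the threshold. Without normal 3, Ccnd3 fell 2.20-fold in dysplasia (adjusted p = 0.010, limma) and 2.09-fold in adenocarcinoma (adjusted p = 0.018, limma). It was the least affected of the 8 genes by normal 3 in size: its log2 fold changes with and without that array differed by less than 0.2.

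Ccnd3 was the 1 gene of the 8 whose groups did not overlap in either comparison with normal. In dysplasia against normal, 12.4% of all genes lay wholly higher and 10.5% wholly lower. In adenocarcinoma against normal, 10.5% lay wholly higher and 9.78% wholly lower. A count of 1 in 8 genes is near the shares wholly lower and is not a result about the family. For all 6 lesion arrays below all 3 normal arrays the share of genes was 3.99%. A second Ccnd3 probe, above background on every array, gave -0.77 in dysplasia and -0.86 in adenocarcinoma without normal 3. The third lay near background and gave -0.08 and -0.05.

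RefSeq gives Ccnd3 more than 1 start, and 2 promoters are shown because the probes' positions within the gene were not analysed here. They are chr17:47504801-47505050 and chr17:47593217-47593466, both on the plus strand, with capitals on the single CCAAT box, 108 bases before the second start.
Ccnd3, upstream start: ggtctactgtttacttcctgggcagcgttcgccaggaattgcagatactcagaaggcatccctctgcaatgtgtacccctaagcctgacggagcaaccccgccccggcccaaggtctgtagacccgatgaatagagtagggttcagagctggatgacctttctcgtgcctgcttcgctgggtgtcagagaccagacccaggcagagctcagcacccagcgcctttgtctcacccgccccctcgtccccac
Ccnd3, downstream start: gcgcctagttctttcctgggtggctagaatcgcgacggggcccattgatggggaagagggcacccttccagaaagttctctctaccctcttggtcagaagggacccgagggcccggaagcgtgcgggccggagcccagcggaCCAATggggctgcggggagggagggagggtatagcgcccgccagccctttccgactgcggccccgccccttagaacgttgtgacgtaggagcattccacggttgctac
Neither stretch held an E2F word or a CHR word.

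Ccnd2 (chr6:127125162-127152188) had log2 intensities of 10.56, 10.43 and 8.57 on the normal arrays, of 7.18, 8.03 and 8.82 in dysplasia and of 9.32, 7.94 and 9.92 in adenocarcinoma. Normal 1 and 2 were the highest of the 9 arrays, dysplasia 1 was the lowest, and normal 3 lay inside both lesion groups. Group means were 9.85 ± 1.11 in normal, 8.01 ± 0.82 in dysplasia and 9.06 ± 1.01 in adenocarcinoma (SD, n = 3 each). The log2 fold change over all 9 arrays was -1.84 ± 0.71 (SE) in dysplasia (adjusted p = 0.19, limma) and -0.79 ± 0.71 in adenocarcinoma (adjusted p = 0.59, limma). Without normal 3, Ccnd2 fell 5.61-fold in dysplasia (adjusted p = 0.031, limma), and its log2 fold change of -1.43 ± 0.64 in adenocarcinoma did not pass (adjusted p = 0.18, limma). Its second bright probe gave -2.15 and -1.05 in the same comparisons, and 2 further probes lay near background with differences under 0.2 in size.

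Ccnd1 (chr7:144929931-144939831) was the most variable of the 8 genes within dysplasia. Its log2 intensities were 12.20, 12.64 and 10.59 on the normal arrays, 9.11, 9.79 and 13.27 in dysplasia and 11.34, 10.47 and 11.60 in adenocarcinoma. Dysplasia 3 was the highest and dysplasia 1 the lowest of all 9 arrays, so the dysplasia group enclosed both others. Group means were 11.81 ± 1.08 in normal, 10.72 ± 2.23 in dysplasia and 11.14 ± 0.59 in adenocarcinoma (SD, n = 3 each). No comparison passed: the log2 fold change over all 9 arrays was -1.09 ± 1.04 (SE) in dysplasia (adjusted p = 0.55, limma) and -0.67 ± 1.04 in adenocarcinoma (adjusted p = 0.77, limma). Without normal 3 it was -1.70 ± 1.12 (adjusted p = 0.31, limma) and -1.28 ± 1.12 (adjusted p = 0.48, limma). Its 3 probes followed each other over the 9 arrays (r = 0.998 and 0.95 to the tested probe), and all 3 were highest on dysplasia 3.

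Markers of other cell types differed between the same arrays as Ccnd2 and Ccnd3. Of the 10 B and plasma cell markers listed, 5 were measured, and their median log2 intensity was 9.86, 10.22 and 6.87 on normal 1, 2 and 3. On the same arrays that of 6 T cell markers of 10 was 9.10, 9.07 and 7.15, and that of 5 adipocyte markers of 8 was 10.46, 9.91 and 7.59. The summed intensity of the B and plasma cell markers ran from 627 to 5851 in normal, from 380 to 542 in dysplasia and from 379 to 2012 in adenocarcinoma. That of the T cell markers ran from 3755 to 7690, from 2849 to 3721 and from 3049 to 4900 over the same stages, and that of the adipocyte markers from 1499 to 26648, from 394 to 1096 and from 443 to 6132. Most of each T cell sum came from Cd8b1 alone, whose log2 intensity was 11.2 to 12.4 on all arrays. The other T cell markers lay at 9.20 or below. Fibroblast markers, 6 of 6, summed to between 6111 and 31413 in normal, 1293 and 11408 in dysplasia and 4279 and 27087 in adenocarcinoma. Of the defining markers, Jchain and Pax5 for B and plasma cells, Cd4, Cd8a and Cd5 for T cells and Fabp4 and Retn for adipocytes had probes that were not above background on 3 arrays. Normal 1 and 2 had the highest medians of the B and plasma cell, T cell and adipocyte lists, and the highest Ccnd2 and Ccnd3. Medians of 9 duct markers (10.58, 11.11 and 8.24), 6 basal and myoepithelial markers (10.80, 11.02 and 7.48) and 7 granular convoluted tubule markers (15.26, 15.38 and 14.49) were also higher on normal 1 and 2 than on normal 3. Other values ran differently. Ccnd1 was highest on dysplasia 3, where the B and plasma cell, T cell and adipocyte medians were 6.66, 6.64 and 7.13. Ccnd3 was higher on normal 3 than on adenocarcinoma 1 and 3, although the B and plasma cell median was 6.87 on normal 3 and 8.30 and 7.50 on those adenocarcinomas. The 8 macrophage markers summed to between 10029 and 13099 in normal, 4756 and 49212 in dysplasia and 22358 and 33888 in adenocarcinoma, with the highest sum on dysplasia 3. The part of these cells in the D cyclin differences was not tested.

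**Figure D3:**
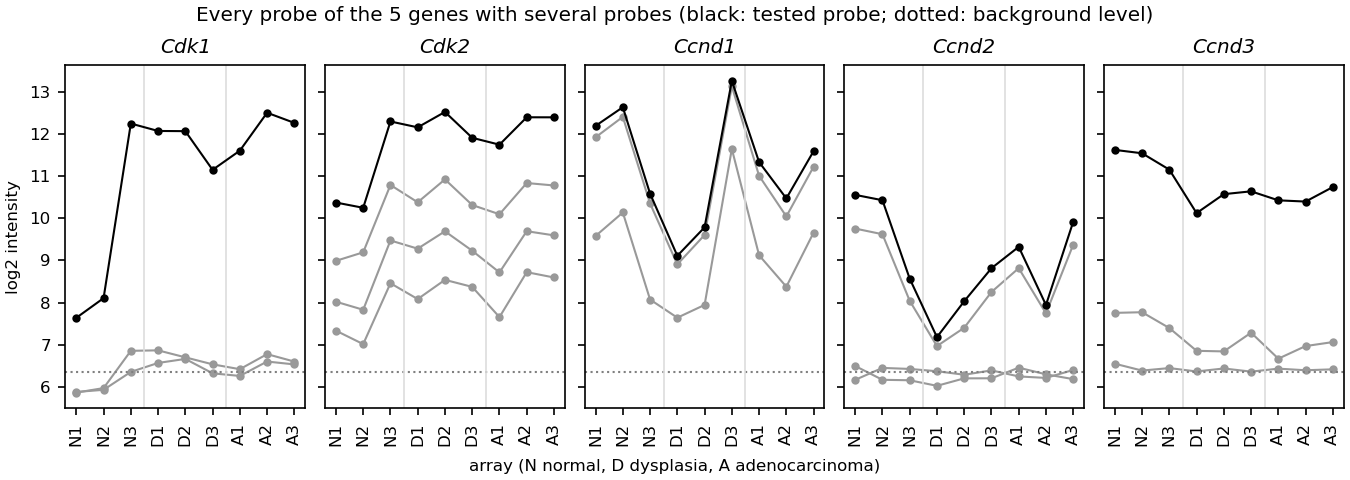
Log2 intensity of every probe of the 5 genes that have several, on the 9 arrays in order of stage (horizontal axis), with the tested probe in black, the others in grey and the background level of 6.36 as a dotted line. The 4 probes of Cdk2 and the 3 of Ccnd1 ran in parallel, while the 2 dimmer probes of Cdk1, 2 of Ccnd2 and 1 of Ccnd3 lay near background.

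The comparison of adenocarcinoma with dysplasia asks whether the family differs between the later and the earlier lesion, and 0 of the 8 genes passed, as did 0% of all genes (lowest adjusted p 0.885 in limma, with 0 of the 8 and 529 of all genes at an unadjusted p under 0.05). For Cdk1 the log2 fold change was 0.36, with a 95% interval from -2.12 to 2.85, and for Cdk2 it was -0.02, from -1.22 to 1.18. The interval was narrowest for Ccnd3, at 0.08 with bounds of -0.41 and 0.56, and wide for Ccnd1, at 0.41 with bounds of -1.99 and 2.82. The log2 fold change was 1.05 for Ccnd2 (interval -0.58 to 2.68), 0.23 for Ccne2 (-1.38 to 1.85), -0.52 for Ccna2 (-1.72 to 0.67) and -0.34 for Ccne1 (-1.24 to 0.56). None of the 8 genes had groups free of overlap, where 4% of all genes lay wholly higher and 6.52% wholly lower in adenocarcinoma. These intervals leave room for differences of more than 2-fold in every gene but Ccnd3.

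Within the adenocarcinomas the S-phase and mitotic genes ranked the glands alike. Adenocarcinoma 1 was the lowest of its group for Cdk1, Cdk2, Ccna2, Ccne1 and Ccne2, and adenocarcinoma 2 was the highest or level with the highest for all 5. Adenocarcinoma 2 was also the lowest of its group for Ccnd1, Ccnd2 and Ccnd3. Over the same glands the acinar markers had median log2 intensities of 14.75, 11.77 and 12.91. The B and plasma cell markers had 8.30, 6.29 and 7.50, and both lists were lowest on adenocarcinoma 2. Of the acinar markers, Bhlha15, Aqp5 and Lpo were instead highest there (11.74, 14.08 and 9.67). The granular convoluted tubule median was lowest on adenocarcinoma 3 (8.29), and all other lists on adenocarcinoma 2. Adenocarcinoma 3 was the highest of its group for Ccnd1, Ccnd2 and Ccnd3. It also had the highest fibroblast (11.86), skeletal muscle (10.13), macrophage (10.67) and endothelium (8.77) medians. The other lists were highest on adenocarcinoma 1. Whether these lists bear on the cyclin values was not tested.

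Among the 7 arrays other than normal 1 and 2, Ccna2 and Ccnd1 ran opposite to each other (Pearson r = -0.94, Spearman rho = -0.96), and so did Ccna2 and Ccnd2 (r = -0.86). These values were -0.92 and -0.93 over all 9 arrays. Cdk1 and Cdk2 ran together (r = 0.79 over 7 arrays and 0.98 over 9), as did Ccne2 and Cdk2 (r = 0.81 over 7 arrays). Cdkn1a, which encodes the CDK inhibitor p21, had log2 intensities of 9.94, 9.23 and 10.43 on the normal arrays, of 8.97, 9.05 and 12.11 in dysplasia and of 10.88, 10.83 and 10.82 in adenocarcinoma. It was highest on dysplasia 3, the gland with the highest Ccnd1, and followed Ccnd1 over the 7 arrays at r = 0.94 but over all 9 at 0.55. Dysplasia 3 also had the highest macrophage and fibroblast medians of its group (10.49 against 8.40 and 9.33, and 10.61 against 7.66 and 9.03). The same held for the endothelium (8.82), acinar (10.30) and basal and myoepithelial (7.47) lists. It held as well for the adipocyte (7.13), B and plasma cell (6.66) and skeletal muscle (6.45) lists. The granular convoluted tubule (12.76), duct (7.64) and T cell (6.86) medians were instead highest on dysplasia 2. These correlations describe a few arrays that share stage and cell makeup, and no test was made of them.

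By likeness of pattern, the 3 genes with the highest r over the 7 arrays were named for each member, out of 12553. For Cdk1 they were Prc1 (r = 0.98, and 0.998 over all 9 arrays), Mrps11 (0.97, and 0.90 over all 9) and Llph (0.97, and 0.62 over all 9). For Cdk2 they were Ctps (0.97), Hinfp (0.96) and Mrpl40 (0.96), with 0.93, 0.75 and 0.96 over all 9 arrays. Ccnd3 was closest to Smad6 (0.99), Scamp4 (0.98) and Cd276 (0.95), of which only Scamp4 kept a like pattern over all 9 arrays (0.98, against 0.34 for Smad6 and -0.41 for Cd276). Ccnd1 was closest to Atp6v1e1 (0.99), Fpr2 (0.98) and Pcolce2 (0.98), with 0.95, 0.60 and 0.90 over all 9 arrays. Ccnd2 was closest to Cavin3 (0.995), Svep1 (0.99) and Ostf1 (0.99), with 0.90, 0.96 and 0.84 over all 9. Ccna2 was closest to Vmn1r69 (0.99), Nudt14 (0.99) and Ythdc2 (0.99), with 0.64, 0.78 and 0.85 over all 9. Ccne1 was closest to Lzic (0.99), Il13 (0.99) and Zfp398 (0.98), but over all 9 arrays r was 0.90 for Lzic, -0.43 for Il13 and 0.58 for Zfp398. Ccne2 was closest to Fan1 (0.97), Kcnj2 (0.96) and Cnot1 (0.96), and over all 9 arrays r was 0.91 for Fan1, 0.13 for Kcnj2 and 0.82 for Cnot1. These values describe the arrays at hand only, and no test was made of them.

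The rest of the cell cycle machinery was read through 6 lists of related genes. Over all 9 arrays 0 genes of any list passed in any comparison in limma. An unadjusted p under 0.05 was held by 2 to 7 genes of a list in dysplasia and 0 to 6 in adenocarcinoma. Of all 12553 genes, 2800 and 2005 held it. In dysplasia 7 of 10 CDK activators, 4 of 10 CDK inhibitors and 7 of 19 ubiquitin ligases held it, above the share of all genes. Other cyclins, with 4 of 15, and RB and E2F genes, with 4 of 17, lay near that share, and other CDKs, with 2 of 16, below it. In adenocarcinoma 6 of 10 CDK inhibitors, 5 of 15 other cyclins, 3 of 10 CDK activators and 5 of 19 ubiquitin ligases lay above the share. Other CDKs, with 0 of 16, and RB and E2F genes, with 0 of 17, lay below it. The counts that follow leave out normal 3 and share its limits, and are read against the share of all genes called in the same way. Cdkn2a, Wee1, E2f7 and Ccnf, counted below, met the background filter only through arrays other than normal 1 and 2, so their places in these counts are no support for a direction. Of the CDK activators and partners, 8 of 10 tested rose in dysplasia and 6 of 10 in adenocarcinoma, with 0 lower in both, where 12.6% and 7.69% of all genes were higher, and the medians were 2.76 and 2.14 on the log2 scale (1.97 and 1.35 over all 9 arrays). The medians of all genes tested were 0.05 and 0.02 without normal 3. Plk1, a mitotic kinase that acts upstream of Cdk1, had log2 fold changes of 4.58 in dysplasia (adjusted p = 0.0013, limma) and 4.43 in adenocarcinoma (adjusted p = 0.0019, limma), and Aurka, which activates it, 4.42 and 4.26. Cdc7, the kinase that fires replication origins, had 3.42 and 2.69, and Cdc25c, the phosphatase that activates Cdk1, 2.87 and 2.38. Bora, a cofactor in the activation of Plk1, had 2.64 and 1.90. Cdc25a, a phosphatase that activates Cdk2, had 0.03 and 0.11 and did not pass.

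Of the CDK inhibitors and inhibitory kinases, 6 of 10 tested rose in dysplasia and 5 of 10 in adenocarcinoma, with 0 lower in both (medians 1.34 and 1.88, and 0.96 and 1.39 over all 9 arrays), where 12.6% and 7.69% of all genes were higher. Cdkn2a, which encodes p16 and ARF, lay at background on normal 1 and 2 (6.06 and 6.04) and at 10.56 on normal 3. It rose at least 24.8-fold in dysplasia (adjusted p = 0.00075, limma) and at least 20.1-fold in adenocarcinoma (adjusted p = 0.0011, limma). Cdkn2b, an inhibitor of Cdk4 and Cdk6, had log2 fold changes of 3.49 (adjusted p = 0.019, limma) and 3.29 (adjusted p = 0.030, limma). Cdkn2c, of the same family, had 0.94 (adjusted p = 0.042, limma) and 1.33 (adjusted p = 0.018, limma). Wee1, a kinase that inhibits Cdk1, was at least 1.60-fold higher in dysplasia (adjusted p = 0.011, limma) and did not pass in adenocarcinoma. Of the p21 family, Cdkn1a had 0.46 and 1.26 and Cdkn1b 1.32 and 1.18, none of which passed. The remaining member, Cdkn1c, which encodes p57, had 2.42 ± 0.71 (SE) in adenocarcinoma without normal 3, close to the threshold (adjusted p = 0.060, limma), and 2.00 ± 0.67 over all 9 arrays (adjusted p = 0.26, limma).

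The RB and E2F list, which governs transcription of cyclin E and cyclin A, had 8 of 17 genes higher and 1 lower in dysplasia, and 6 higher and 1 lower in adenocarcinoma (medians 0.83 and 0.42, the first 0.75 with genes at background on normal 1 and 2 held at their bound, and 0.52 and 0.50 over all 9 arrays). The shares of all genes were 12.6% higher and 11.4% lower in dysplasia and 7.69% and 7.96% in adenocarcinoma. E2f1 had log2 fold changes of 2.85 (adjusted p = 0.0016, limma) and 2.66 (adjusted p = 0.0028, limma). Foxm1 and Mybl2, transcription factors of late cell cycle genes, had 2.71 and 2.50, and 3.80 and 3.35. Lin54, a subunit of the complex that represses or activates cell cycle genes, had 1.99 and 1.46, and Rbl1, the RB relative p107, 2.62 and 2.05. E2f7, a repressor of the E2F family, was at least 1.69-fold higher in dysplasia (adjusted p = 0.040, limma) and did not pass in adenocarcinoma. E2f6 had 0.37 in adenocarcinoma and did not pass. Rbl2, the RB relative p130 of resting cells, was the gene that fell, by 0.77 in dysplasia (adjusted p = 0.020, limma) and by 0.79 in adenocarcinoma (adjusted p = 0.024, limma). Rbl2 lay between 6.24 and 6.55 on the lesion arrays, close to the background level of 6.36, which caps the fall that can be seen. Rb1 itself, a target of T antigen, had 0.55 and 0.26 and did not pass. Cdk1 followed E2f1 over the 7 arrays at r = 0.75 and over all 9 at 0.99.

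Among ubiquitin ligases that destroy cyclins and their regulators, 7 of 19 were higher and 1 lower in dysplasia, and 2 higher and 1 lower in adenocarcinoma (medians 0.39 and 0.34, the first 0.26 with such genes at their bound, and 0.18 and 0.17 over all 9 arrays). In adenocarcinoma these counts are near the 7.69% and 7.96% of all genes, and in dysplasia 12.6% of all genes were higher and 11.4% lower. Cdc20, which directs the anaphase-promoting complex to cyclin B, had log2 fold changes of 4.67 (adjusted p = 0.0013, limma) and 4.72 (adjusted p = 0.0018, limma). Fbxw7, which marks cyclin E for destruction, fell by 1.61 in dysplasia (adjusted p = 0.0026, limma) and by 1.36 in adenocarcinoma (adjusted p = 0.0061, limma). Anapc4 and Anapc5, subunits of the anaphase-promoting complex, had 0.79 and 1.29 in dysplasia, and Cdc23, another subunit, had 1.29 in adenocarcinoma, and all 3 passed there. Ambra1, which directs D cyclins to destruction, had -0.56 (adjusted p = 0.070, limma) and Cul3, a ligase scaffold, -0.52 (adjusted p = 0.083, limma) in adenocarcinoma.

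Among other CDKs 2 of 16 were higher and 0 lower in both comparisons (medians 0.19 and 0.15, and 0.20 and 0.13 over all 9 arrays), where 12.6% of all genes were higher in dysplasia and 7.69% in adenocarcinoma. In dysplasia this count is the background share and not a result about these kinases. They were Cdk14, with log2 fold changes of 2.86 and 1.94, and Cdk20, with 1.64 and 1.05. Cdk4, the partner of D cyclins, had 0.96 (adjusted p = 0.089, limma) and 1.21 (adjusted p = 0.060, limma). Cdk19 had 1.05 and 1.11 and Cdk5r1, an activator of Cdk5, had 0.69 in adenocarcinoma, none of which passed. Cdk6 was below background on all but 1 array. Among other cyclins and their partners 3 of 15 were higher and 2 lower in dysplasia, and 1 higher and 3 lower in adenocarcinoma (medians -0.09 and -0.05, and 0.01 and -0.10 over all 9 arrays). The shares of all genes were 12.6% higher and 11.4% lower in dysplasia and 7.69% and 7.96% in adenocarcinoma, so the 2 lower genes in dysplasia and the 1 higher gene in adenocarcinoma are near the background. Cables1, which binds CDKs, fell by 2.16 and 2.20, and Ccng1, a p53 target, fell by 1.24 and 1.27 on the log2 scale. Ccnl1 had 0.49 in dysplasia, which did not pass, and 0.68 in adenocarcinoma, which did, and Ccnh, a partner of Cdk7, had 0.86 in dysplasia and passed. In adenocarcinoma against dysplasia 0 genes of these 6 lists passed with or without normal 3, and the list medians lay between -0.32 and -0.05. The genes with the lowest p there were Mnat1, Bora and Cdc7, Cdkn1c, Wee1 and Cdkn2c, Cul1, Cul3 and Ube2c, Cdk20, Cdk16 and Cdk14, Ccnh, Ccny and Ccnk, and E2f3, Tfdp2 and Lin54, and their log2 fold changes lay between -0.92 for Cdk14 and 1.07 for Cdkn1c.

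**Figure D4:**
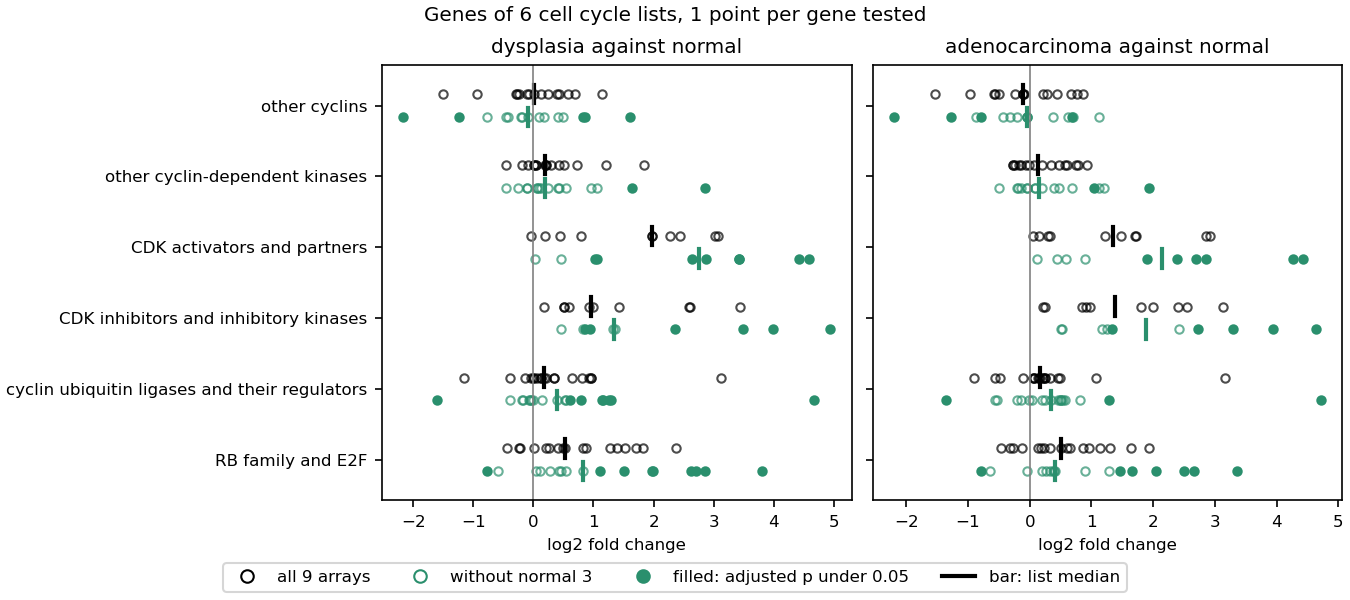
Log2 fold change against normal (horizontal axis) of each gene tested in 6 cell cycle lists, in dysplasia on the left and in adenocarcinoma on the right, over all 9 arrays in black and without normal 3 in green, with bars at the list medians and filled points where the adjusted p was under 0.05. CDK activators and partners had the highest medians without normal 3, 2.76 in dysplasia and 2.14 in adenocarcinoma, and no point was filled over all 9 arrays.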

How the data were processed

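Total RNA of 9 glands was labelled with biotin and hybridised to Illumina BeadChips, per the labels. The deposited values are linear intensities. Quantile normalization by the authors shows in the values: once sorted, the columns differed by at most 0.0992%. The submitters' processing notes name limma with no version, and no label or header used here states the scanner software or any background correction. Another table, with 9 signal and 9 detection p-value columns deposited under names that match no sample label, was not used here.

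Groups and replicate numbers came from the sample titles. Of 45281 probes, the platform annotation gave 34885 a single symbol and 18 more than 1, and 10378 were unnamed here. Intensities were analysed as log2 values, the authors' values being deposited on the linear scale. Background was set at 82.0 (6.36 on the log2 scale), the mode of all values, 65.8, plus the 95th percentile of the spread below it. Probes above it on at least 3 arrays were kept and the brightest represented its gene, which left 12553 genes, 5224 of them with several such probes. Where both of normal 1 and 2 lay at background, folds set the group mean log2 intensity against the background level. They are lower bounds for the fold between means, not limits that every array reaches. The p-values beside such bounds come from the fit to the measured values, those below background included.

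Group means were fitted in limma 3.58.1 under R 4.3.3 with moderated variances (6 residual degrees of freedom) and Benjamini-Hochberg adjustment over all genes, at an adjusted p of 0.05. No exact permutation test was run, as p = 0.1 is the lowest that 3 arrays against 3 allow. The fit of dysplasia against normal was tried on simulated data with independent noise and no outlying array. Each gene's spread was held at or below the median spread. This checks the code only, since the real data hold wider spreads and normal 3. Promoters came from RefSeq (GRCm38.p6).

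The cyclin and CDK genes, the marker lists and the 6 cell cycle lists were chosen with earlier results of these data known. Named genes were all members, the 3 genes of each list with the lowest p in a comparison, a fixed set of 12 regulators and the 3 genes most like each member over the 7 arrays other than normal 1 and 2. Cdc20 and Rbl2, and values of genes in a comparison where this rule did not pick them, were added after their values were seen. Alternatives covered an offset of 16, the filter, the mean over probes, normexp with an offset of 50, cyclic loess, centring on tested genes, a replicate block, array weights, fits on 2 groups and leaving out each array. Figures were drawn with matplotlib 3.10.9.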

Additional observations from a re-analysis of the deposited data

How the results depend on the processing

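Over all genes, the count past the threshold in dysplasia against normal, 0 over all 9 arrays, was 1 with no filter on dim probes and 7806 with array weights, and it ran from 0 to 3011 when each array was left out in turn, the last without normal 3. In adenocarcinoma against normal it was 6 with no filter and 4530 with array weights, and ran from 0 to 1964. In adenocarcinoma against dysplasia it was 7 with array weights and ran from 0 to 1. Of the 8 cyclin and CDK genes, array weights, which ran from 0.17 for normal 3 and 0.37 for dysplasia 3 to 4.98 for normal 2 and 6.53 for dysplasia 2 and so let single arrays carry most of a group, put 8 past the threshold in dysplasia and 6 in adenocarcinoma, and leaving out arrays gave 0 to 6 and 0 to 4. Without any array other than normal 3, 0 of the 8 passed in either comparison. Deviations of same-numbered arrays correlated at -0.46 to 0.24. Differently numbered arrays were not set beside them, so these values cannot settle whether replicate numbers pair the arrays. With the replicate block 0 genes passed in each comparison, with 2423, 1848 and 470 at an unadjusted p under 0.05. For single genes of the family, all changes of sign fell in adenocarcinoma against dysplasia. Array weights gave -0.079 for Ccnd3, -0.67 for Ccne2 and -0.11 for Cdk1 on the log2 scale, and cyclic loess gave 0.027 for Cdk2. With each array left out, the value ran from -0.39 to 1.69 for Ccnd1, -0.085 to 0.17 for Ccnd3, -0.13 to 0.63 for Ccne2 and -0.16 to 0.20 for Cdk2. The mean over probes lowered the log2 fold change of Cdk1 to 1.12 in dysplasia and 1.19 in adenocarcinoma, since it takes in the 2 probes near background. Of the recomputed values of single genes, 420 kept their direction and side of the threshold, 24 passed it only in the alternative and 12 changed sign. The cause of these shifts was not tested. Signal close to background limits Ccna2, Ccne1, Ccne2 and Ccnb2, and 2 normal arrays limit all calls made without normal 3.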
